A study of Arabidopsis thaliana with 6 samples.

Results

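Plant defensins and their relatives are small secreted peptides held together by disulfide bonds between conserved cysteines. The PDF genes encode the classic defensins, several of which act against fungi. PDF1.2A is widely used as a marker of the jasmonate and ethylene defence response. LCR stands for low-molecular-weight cysteine-rich, and SCRL for relatives of SCR, the pollen ligand of self-incompatibility in the Brassicaceae. Many peptides of these families are made mainly in flowers, pollen or seeds, and their genes are short and scattered, some in small arrays.

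The genes described here are those whose name in the authors' table of differentially methylated regions (DMRs) is LCR, SCRL or PDF followed by a digit. The rule took 37 of 18828 entries, for 29 of 9213 DMRs and 21 of 7699 genes. Of these genes 12 are named LCR, 5 SCRL and 4 PDF. The table describes 20 of the 21 as defensin-like proteins, and LCR16 as an uncharacterized protein. The study compared 3 bisulfite libraries of wild-type Arabidopsis thaliana Col-0 with 3 of the mutant rbp-ko-1, also called KO27. The mutated gene, RBP45D, encodes an RNA-binding protein that the series title connects with flowering under heat and with RNA-directed DNA methylation, a pathway that uses small RNAs to direct methylation to the loci they match. Plants of both genotypes were 26 days old and grew on soil in long days of 16 h light and 8 h dark. The mutant is a single line, so the mutation and any other trait of that line cannot be told apart.

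A cytosine is methylated in a CG, CHG or CHH context, where H is A, C or T. Plant genes often carry CG methylation in their bodies, whereas CHG and CHH methylation lie mainly on transposons and repeats. CHH methylation has to be laid down anew after each round of replication, in part by the RNA-directed pathway. Each level below is the authors' mean over the libraries of a genotype, in percent, and a difference is rbp-ko-1 less Col-0, in percentage points. The table holds no values per library and no coverage, so no level carries an error, the depth is unknown, and no difference could be set against the spread between plants. A region is in the table because the authors called it, so a difference between the genotypes is a condition of entry and not a result about these genes.

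Of the 29 regions, 27 were less methylated in rbp-ko-1 than in Col-0. In CHH, 20 of 21 were lower, beside 97.4% of all CHH regions in the table. In CG, 6 of 7 were lower, beside 74.7% of all CG regions, and the only CHG region was lower too, beside 89.1%. The 2 higher regions lay at LCR29 in CHH and at LCR11 in CG. These shares lie near those of the whole table or rest on few regions, and they mark nothing particular to the family.

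Counted by gene, 21 of the 115 protein-coding defensin-like genes in the RefSeq gene table carried a region (18.3%), beside 22.0% of 27444 nuclear protein-coding genes. CHH regions were found at 17 of them (14.8%, beside 12.5%), CG regions at 7 (6.09%, beside 11.8%) and a CHG region at 1 (0.870%, beside 1.35%). By name, 4 of 13 PDF genes, 5 of 27 SCRL genes and 12 of 75 LCR genes were in the table. The SCRL genes had no CG region, and the LCR and PDF genes no CHG region. Defensin-like genes are short, with a median length of 598 bp against 2078 bp for all protein-coding genes. The other 94 genes have no entry, which does not show that their methylation was equal.

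**Figure D1:**
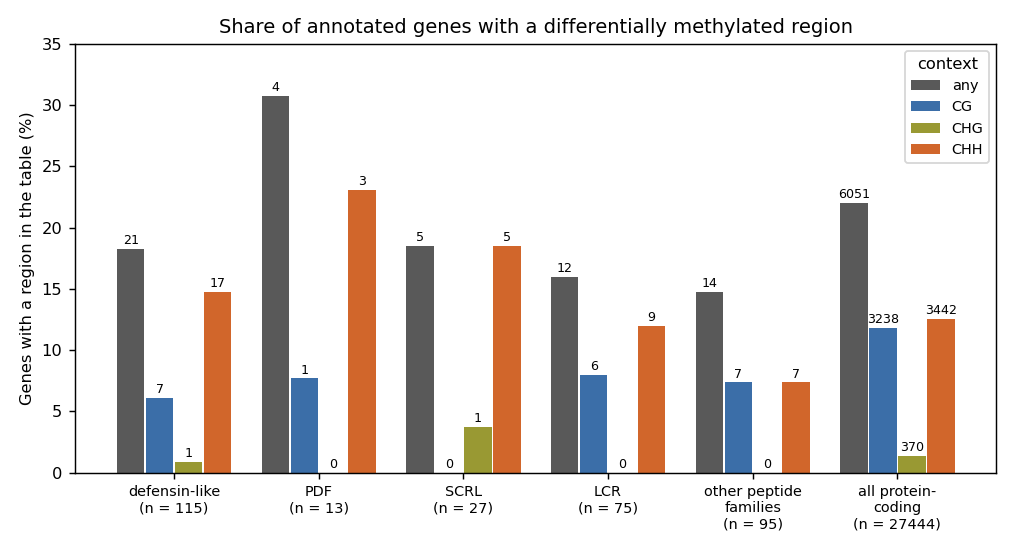
The share of annotated protein-coding genes with at least 1 region in the table is given in percent for each context and for any context, with the number of genes above each bar. Defensin-like genes stood at 18.3% in any context and all protein-coding genes at 22.0%, and no error is drawn because each bar is a count.

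The CHH losses were small in points and large in proportion. Over the 20 lower regions the median level was 9.42% in Col-0 against 3.54% in the mutant, with a median difference of -5.89 points. Over all 5680 lower CHH regions of the table these medians were 8.99%, 3.14% and -5.82 points. Col-0 levels ran from 2.26% to 21.0% and rbp-ko-1 levels from 0.149% to 9.54%. Relative to Col-0, the median level kept in rbp-ko-1 was a ratio of 0.384, beside 0.354 over the table, and 14 of the 20 ratios lay between the table's quartiles of 0.273 and 0.428. The lower CHH regions at these genes thus sat in the middle of the table's distribution. Differences of at least 10 points were found at 2 of them (10%, beside 11.7% over the table), at PDF2.6 and LCR16.

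**Figure D2:**
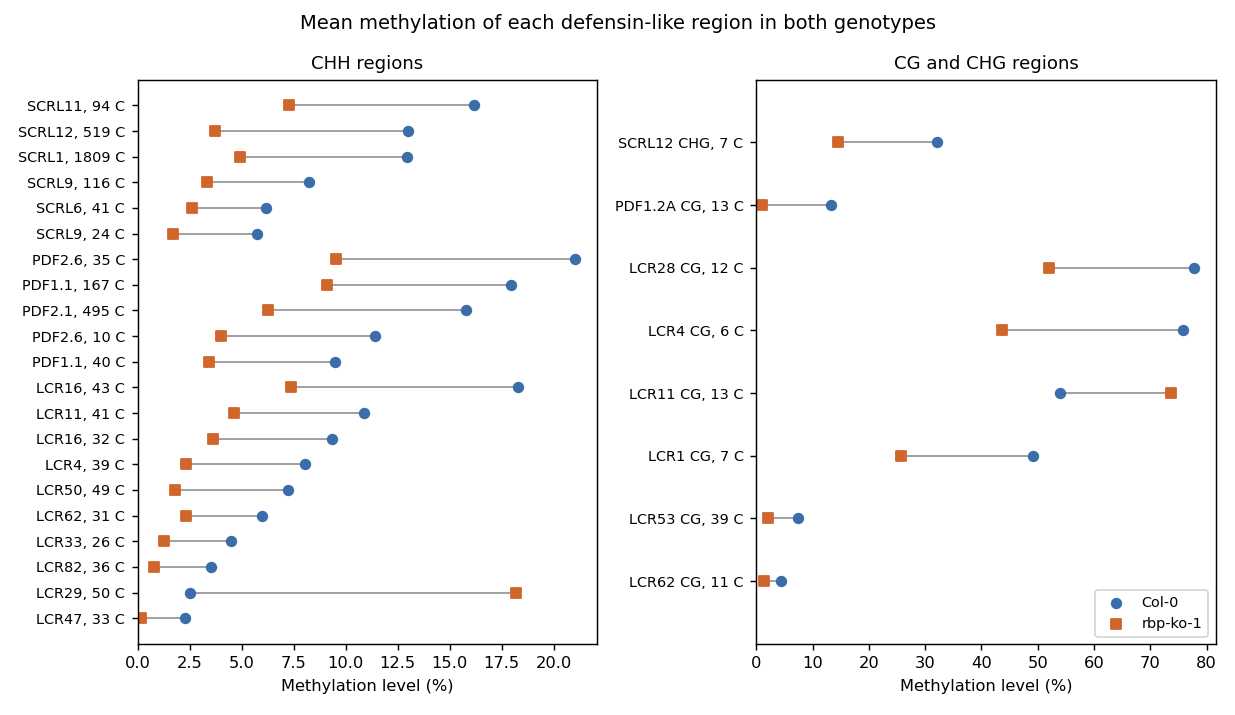
Each line joins the mean methylation level in Col-0 (circles) and rbp-ko-1 (squares) of 1 region, in percent, with the gene and the number of cytosines (C) at the left. The rbp-ko-1 value is to the left of the Col-0 value in every region except the CHH region of LCR29 and the CG region of LCR11.

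Among the plant defensins, 3 genes had promoter CHH regions and PDF1.2A a promoter CG region, all lower in rbp-ko-1. The 5 CHH regions had a median of 15.8% in Col-0 against 6.26% in the mutant. At PDF2.1 (AT2G02120) a single long region of 1678 bp and 495 cytosines covered part of the promoter (chromosome 2, 535846 to 537523, TAIR10). Its CHH level was 15.8% in Col-0 against 6.26% in the mutant. At PDF2.6 (AT2G02140) 2 regions lay 230 bp apart in the promoter. The longer (chromosome 2, 543460 to 543679, 35 cytosines) had 21.0% in Col-0 against 9.54% in the mutant, the largest CHH loss of the family in points at -11.5. The shorter (543170 to 543229, 10 cytosines) had 11.4% and 3.995%, and was also annotated to the promoter of the noncoding RNA gene AT2G04195.

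PDF2.1 and PDF2.6 belong to an array on chromosome 2. In RefSeq order it also holds LCR69, whose other name is PDF2.2, LCR68 or PDF2.3, the pseudogene LCR71, and LCR73. None of these 4 had an entry. AT2G02103, a neighbour within the array that is not named as a defensin, had 2 regions, and the nearer one, 1795 bp from that of PDF2.1, was a lower CHH region at 13.3% in Col-0 against 5.29% in the mutant. The called regions of the array thus lay at some of its genes and not at others between them.

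PDF1.1 (AT1G75830) encodes a defensin whose RefSeq symbol is LCR67. Its promoter carried 2 CHH regions 109 bp apart on chromosome 1, both lower. The longer one (28470751 to 28471328, 167 cytosines) had 17.9% in Col-0 against 9.11% in the mutant, a ratio of 0.508 that was the highest among the family's lower CHH regions. The shorter one (28470469 to 28470641, 40 cytosines) had 9.48% and 3.45%. Both were annotated to the promoter of AT1G09583 too, and a further CHH region at the start of that gene, 124 bp away, had 19.4% and 11.2%. The losses at PDF1.1 therefore formed a run of 3 CHH regions, of which the outermost was annotated only to the neighbour.

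At PDF1.2A (AT5G44420) the promoter CG level was 13.3% in Col-0 against 1.03% in the mutant over 13 cytosines (chromosome 5, 17907947 to 17908052). The ratio of 0.0774 was the lowest of the family's CG regions. This gene had no CHH region, and the nearest other DMR was 13567 bp away. PDF1.2b, PDF1.2c, PDF1.3, PDF1.4, PDF1.5, PDF2.4 (LCR66) and PDF2.5 had no entry. PDF1.2c is the next gene and a close copy, and whether reads of this promoter region could be placed at another copy was not tested.

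All 5 SCRL genes in the table were lower in CHH. The 6 CHH regions had medians of 10.6% in Col-0 against 3.54% in the mutant. SCRL1 (AT4G10457) lay in one of the longest regions of the table, 5836 bp with 1809 cytosines (chromosome 4, 6467203 to 6473038), rank 9 by length and rank 5 by area statistic among 5680 lower CHH regions. Its level was 12.97% in Col-0 against 4.94% in the mutant. The region covered the start site, an exon and the promoter of SCRL1, a gene of only 371 bp, and reached the promoter of HIPP44, which encodes a metal-binding protein. Inside it a CHG region of 151 bp, annotated only to HIPP44, had 59.1% and 39.6%.

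SCRL12 (AT3G23727) was the only gene of the family with a CHG region. A promoter CHH region of 1580 bp and 519 cytosines (chromosome 3, 8541853 to 8543432) had 12.99% in Col-0 against 3.73% in the mutant. The CHG region (8543362 to 8543467) overlapped the last 71 bp of the CHH region and had 32.2% and 14.6%, from 7 cytosines. Loss in both contexts thus coincided at 1 edge of the CHH region. With PDF2.1 and SCRL1, SCRL12 made up the 3 of 20 lower CHH regions of at least 1000 bp (15%, beside 9.74% over the table). The median length of the 20 was 181 bp, beside 240 bp over the table.

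SCRL9 (AT2G05117) had 2 CHH regions 251 bp apart on chromosome 2. The larger one (1838690 to 1839117, 116 cytosines) crossed the start site into an exon and an intron, with 8.23% in Col-0 against 3.35% in the mutant. The smaller one (1839369 to 1839427, 24 cytosines) lay in the promoter, with 5.75% and 1.72%. Both were also annotated to the promoter of AT2G04855. On the other side of the larger one, 445 bp before its start, lay a CHH region of 2078 bp (1836167 to 1838244). It had 12.97% and 4.54% and was not annotated to SCRL9. SCRL11 (AT4G15733) had 16.2% and 7.26% at a promoter CHH region of 94 cytosines (chromosome 4, 8959474 to 8959839). This region was also annotated to the promoter of AT4G15730. SCRL6 (AT1G60985) had 6.18% and 2.62% over 41 cytosines of its promoter (chromosome 1, 22455841 to 22455979).

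The LCR genes had the lowest median CHH levels of the 3 name groups. They also had 6 of the 7 CG regions, but LCR is the largest group. CG regions lay at 8% of 75 LCR genes, 7.69% of 13 PDF genes and 11.8% of all protein-coding genes. The 9 lower CHH regions of LCR genes had medians of 7.21% in Col-0 against 2.31% in the mutant. LCR16 (AT1G49435) had 2 promoter regions 1145 bp apart on chromosome 1, both annotated to LCR16 alone. The first (18300401 to 18300607, 43 cytosines) had 18.3% in Col-0 against 7.36% in the mutant, and the second (18301753 to 18301907, 32 cytosines) 9.35% and 3.64%. LCR50 (AT2G12465) had 7.21% and 1.81% over 49 cytosines of its promoter (chromosome 2, 5057317 to 5057558), a difference of -5.40 points.

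In the CHH regions called inside LCR genes, methylation was low in both genotypes. LCR47 (AT3G42473) had 2.26% in Col-0 against 0.149% in the mutant across an exon and an intron (chromosome 3, 14607636 to 14607792, 33 cytosines), the lowest ratio of the family at 0.0662. LCR82 (AT2G04425) had 3.55% and 0.800% in an exon (chromosome 2, 1537079 to 1537177), a region also annotated to the promoters of AT2G04410 and NUDT5. LCR33 (AT3G43083) had 4.47% and 1.26% in an intron (chromosome 3, 15076581 to 15076699). No conversion rate is known for these libraries, so how far such low levels stand above unconverted cytosines was not tested.

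LCR4, LCR11 and LCR62 carried regions in both CG and CHH. At the promoter of LCR4 (AT3G25265) a CG region of 6 cytosines (chromosome 3, 9205542 to 9205663) lay wholly inside a CHH region (9205511 to 9205699, 39 cytosines). The CG level there was 75.9% in Col-0 against 43.6% in the mutant, the largest loss of the family at -32.3 points, and the CHH level 8.05% and 2.31%. The same place was annotated to the promoters of AT3G25270 and of NPF4.2, a gene of the nitrate and peptide transporter family. At LCR62 (AT2G29045) the contexts lay 1008 bp apart on chromosome 2, with CG at 4.39% and 1.35% (12474522 to 12474588) and CHH at 5.99% and 2.32% (12475597 to 12475675). Both were shared with AT2G29040, the CG region with an exon of that gene and the CHH region with its promoter.

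LCR11 (AT4G11485) was the only gene of the family with regions in opposite directions. Its promoter CG level was 53.9% in Col-0 against 73.6% in the mutant, higher by 19.7 points over 13 cytosines (chromosome 4, 6977584 to 6977701). Starting 59 bp further on, the CHH level was 10.9% in Col-0 against 4.63% in the mutant over 41 cytosines (6977761 to 6977911). Both regions were also annotated to the promoter of CRK33, a cysteine-rich receptor-like kinase gene. By size the CG difference was rank 452 of 735 higher CG regions.

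LCR29 (AT2G10535) had the only higher CHH region, in its promoter (chromosome 2, 4082516 to 4082743). The level was 2.49% in Col-0 against 18.2% in the mutant over 50 cytosines, a difference of 15.7 points and a ratio of 7.30. This was the fifth largest of the 154 CHH gains in the table. It lay 0.483 Mb from the centromere, no other gene was annotated to it, and the nearest DMR, 4795 bp away, was a lower CHH region at 6.23% and 2.35%. No region was called between the gain and this loss, which does not show that methylation there was equal.

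**Figure D3:**
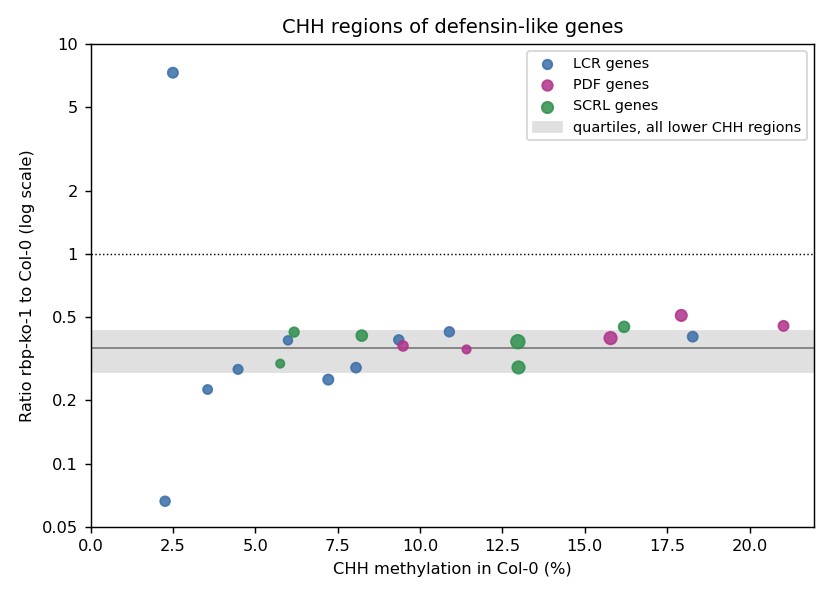
CHH methylation in rbp-ko-1 divided by that in Col-0 is plotted on a log scale against the Col-0 level in percent, with 1 point per region, coloured by name and larger for longer regions. The grey band spans the quartiles over all lower CHH regions of the table (0.273 to 0.428) with the median as a line, and the dotted line marks equal levels. LCR29, at 7.30, is the only point above the dotted line, and LCR47, at 0.0662, is the lowest.

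The remaining CG regions fell into a high and a low range. LCR28 (AT5G42797) had 77.8% in Col-0 against 51.9% in the mutant at its promoter (chromosome 5, 17161590 to 17161806, 12 cytosines), shared with the promoter of the proteasome subunit gene PAF1. LCR1 (AT5G48543) had 49.2% and 25.7% at its 3′ end (chromosome 5, 19675432 to 19675514, 7 cytosines). This region covered an exon, the 3′ UTR and the end site of LCR1 and the start site, 5′ UTR and an exon of HINT3, a nucleotide-binding protein gene. LCR53 (AT3G61177) had 7.37% and 2.16% at a promoter region of 39 cytosines that also lay in an exon of AT3G61180 (chromosome 3, 22645741 to 22645869). With 3 lower CG regions above 49% in Col-0 and 3 below 14%, their median of 31.2% described none of them. It moved to 10.3% when regions of fewer than 10 cytosines were left out and to 75.9% among those of at least 20 points.

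Most regions were annotated to promoters. Of the 29 regions, 25 touched the promoter of a defensin-like gene (86.2%, beside 68.6% of all pairs of a region and a gene in the table) and 23 nothing else of it (79.3%, beside 61.8%). The gene itself was touched by 6 (20.7%, beside 38.2%), at LCR1, LCR33, LCR47, LCR82, SCRL1 and SCRL9. In CHH, which made up 21 of the 29, the family was close to the table, with promoters at 85.7% beside 78.4% and gene bodies at 23.8% beside 30.6%. In CG, 6 of 7 regions touched a promoter (85.7%, beside 49.97%). The 15 promoter-only lower CHH regions had medians of 10.9% in Col-0 against 3.73% in the mutant, and the 5 touching the gene 4.47% and 1.26%. All 5 touching the gene also lay within 3 Mb of a centromere. Over the table the same classes had 10.2% and 3.56%, and 8.03% and 2.64%. Of the 29 regions 17 were also annotated to another gene (58.6%). Among all pairs of a region and a gene, which weight a region by its genes in the same way, 56.1% lay in a shared region. Most of these differences therefore cannot be assigned to the peptide gene alone. Without shared regions, 9 lower CHH, 1 lower CG, the CHG and 1 higher region were left, at 10 genes.

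**Figure D4:**
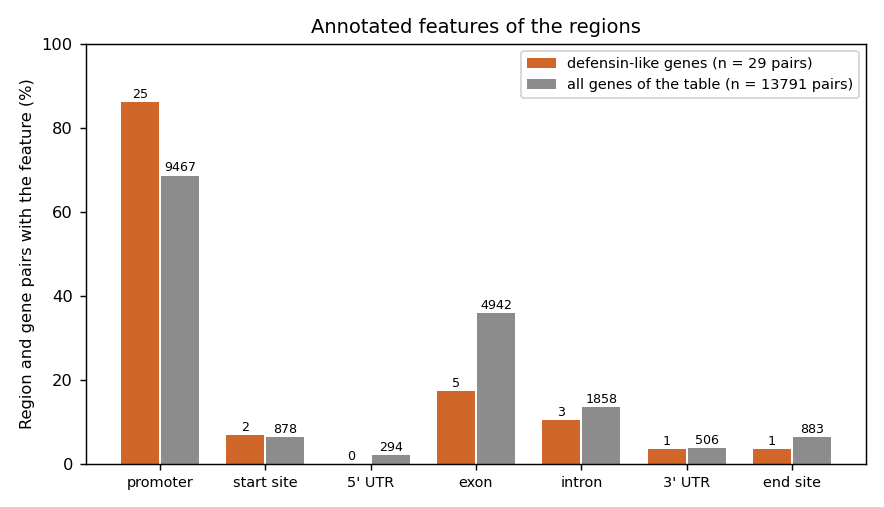
Bars give the percentage of pairs of a region and a gene that carry each annotated feature, for the defensin-like genes and for all genes of the table, with the number of pairs above each bar. A pair can have several features, and the defensin-like genes stand at 86.2% for promoters and 17.2% for exons, against 68.6% and 35.8%.

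The regions were spread over all 5 chromosomes, with 10 of the 29 on chromosome 2, at 7 of the 21 genes (34.5% of the regions, beside 22.6% of all nuclear regions). Within 3 Mb of a centromere, where transposons and repeats are dense, lay 9 of the 21 CHH regions (42.9%, beside 57.0% of nuclear CHH regions) and 1 of the 7 CG regions (14.3%, beside 23.1%). The 3 PDF2 regions lay just outside that distance, at 3.06 Mb, and the 2 LCR11 regions just inside, at 2.98 Mb. The 8 lower CHH regions within 3 Mb had medians of 6.48% in Col-0 against 1.77% in the mutant, and the 12 farther away 12.2% and 3.86%. Those 8 include all 5 that touched the gene. Distance from the centromere and place in the gene therefore cannot be told apart in these medians. Over the table these medians were 8.12% and 2.71%, and 11.5% and 4.26%. Both higher regions lay within 3 Mb, that of LCR11 only just, and the centromere positions used are approximate.

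**Figure D5:**
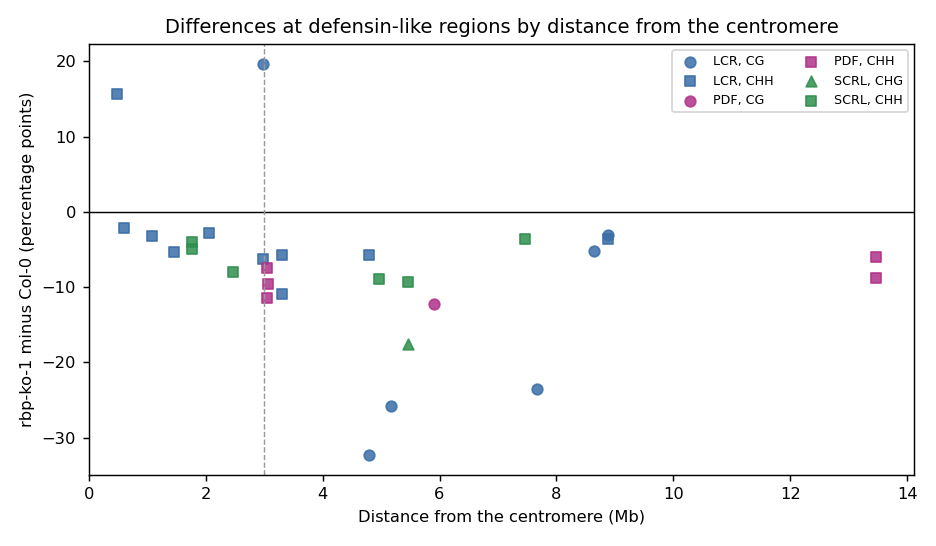
The difference between rbp-ko-1 and Col-0 in percentage points is plotted against the distance from the centromere in Mb for each region, with colours for the gene name and shapes for the context. The dashed line marks 3 Mb, and the 2 regions above 0, LCR29 and LCR11, both lie to its left.

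Other families of small secreted peptides were counted by their RefSeq names for comparison. Of 95 such genes in 10 families, 14 had a region (14.7%), beside 18.3% of the defensin-like genes and 22.0% of all protein-coding genes. By context, 7 had one in CG (7.37%), 7 in CHH (7.37%) and 0 in CHG. Over all protein-coding genes these shares were 11.8%, 12.5% and 1.35%. The LURE peptides, which attract pollen tubes and are themselves defensin-like, had 2 of 5 genes in the table. LURE1.1 had CG methylation of 59.4% in Col-0 against 12.01% in the mutant, and LURE1.5 CHH methylation of 21.8% and 10.7%. Among 34 RALF genes, which encode signalling peptides, 6 had a region (17.6%), lower at 4 and higher at 2. CHH levels were 15.4% in Col-0 against 7.46% in the mutant at RALFL3 and 6.52% against 15.7% at RALF23. The EC1 genes, which act in the egg cell, had 0 of 5. With 5 genes each, LURE and EC1 are too few to set beside the share over all protein-coding genes.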

How the data were processed

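DNA of 3 Col-0 and 3 rbp-ko-1 libraries was extracted, treated with bisulfite and sequenced, per the labels' protocols. The submitters' processing notes name build TAIR10 and the tools MethylDackel, Bismark, FastQC and Trimmomatic. Not given in the sources used here are the DMR caller and its thresholds, the annotation, the promoter length and the conversion rates. The authors deposited 1 methylation fraction per genotype and DMR (shown in percent), their signed difference, an area statistic that is a score used only for ranking, the length, and a whole-number count of cytosines of at least 4. Whether libraries of 1 genotype stem from different plants is not stated in the labels.

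Each DMR was counted once per context. Gene names, lengths and order came from a RefSeq table (TAIR10.1) that held all 21 genes. It held 122 genes with a name of the rule. Of these, 5 were left out as peptide deformylases, protodermal factors or a prefoldin (none in the table), as were 2 pseudogenes. Among related peptides 3 genes of other function were left out, and 15 genes named only in the authors' table. Centromeres were taken at approximate positions of 15, 3.6, 14, 4 and 12 Mb on chromosomes 1 to 5. With no values per library no test was run, and sets are described by counts and medians. Functions were tested on simulated data (Python 3.11.15, pandas 2.3.3). Named genes were those with several contexts or DMRs, gene body regions, gains, the largest differences in each context, and all PDF genes. The remaining members are few and were named as well. The members, lists and rule were chosen with earlier results of these data known. RefSeq products were not used, and the authors' descriptions took their place.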

Additional observations from a re-analysis of the deposited data

How the results depend on the processing

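No paired analysis was possible because the table holds 1 mean per genotype and no values per library. For the same reason no library could be left out, and the depth limit is unknown. Of 104 values recomputed under other settings, 67 stayed within 1.5 times the count, or within the 95% order-statistic interval of the median, and 37 did not. For the 6 lower CG regions that interval is their full range, 4.39% to 77.8% in Col-0. A median over fewer of these regions could not leave it. The CG medians counted as staying under such settings therefore show nothing about stability. Differences of at least 10 points left 2 lower CHH regions (medians 19.7% in Col-0 against 8.45% in the mutant) and 9 genes. At least 20 points left 3 lower CG, 0 CHG, 0 CHH and 0 higher regions, at 3 genes. At least 10 cytosines left 0 CHG regions. The 50% of regions with the larger area statistic held 3 CG, 0 CHG and 6 CHH lower regions (CHH medians 14.4% and 5.60%) at 11 genes. Gene bodies alone held 1 CG, 0 CHG and 5 CHH lower and 0 higher regions (CHH medians 4.47% and 1.26%) at 6 genes. Adding other genes described as defensin-like gave 13 CG, 3 CHG and 61 CHH lower and 6 higher regions at 55 genes. Over 3 Mb from a centromere lay 12 lower CHH and 0 higher regions, at 13 genes. Regions annotated to no other gene, a setting chosen after seeing the data, were 1 CG and 9 CHH lower and 1 higher, at 10 genes. Counting each gene once gave 15 with promoter entries only, and 2 related peptide genes had a region in the gene body. Each of these settings keeps fewer regions or genes by its construction, except the wider family, which adds them. Regions of at least 100 bp, promoters, merging within 100 bp and dropping LCR16 changed no count by more than 1.5 times.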

Other observations

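The table describes 34 further genes as defensin-like that have no LCR, SCRL or PDF name. They carried 54 DMRs, none shared with the named genes. In CHH 41 of 44 were lower (93.2%, beside 97.4% over the table), with medians of 9.44% in Col-0 against 3.56% in the mutant. In CG 7 of 8 were lower (87.5%, beside 74.7%), with medians of 38.97% and 5.10%. The largest CG losses were larger than any at the named genes. AT2G24615 (defensin-like protein 38) had 63.6% in Col-0 against 9.18% in the mutant in an intron, from 6 cytosines. AT4G10603 (defensin-like protein 169) was lower in every context at overlapping regions. Its CG level was 33.5% in wild type against 3.51% in the mutant, its CHG level 10.8% against 0.638%, and its CHH level 3.92% against 0.0461%.

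Gains lay at 3 of the 44 CHH regions (6.82%, beside 2.64% over the table) and at 1 of the 8 CG regions (12.5%, beside 25.3%). AT1G31772 had a promoter CG region at 1.23% in Col-0 against 32.2% in the mutant, from only 4 cytosines. Another CG region, across its promoter and an intron, had 64.6% and 25.96%. A CHH region covering this CG loss was lower too, at 10.4% and 3.56%. AT2G24625, described as defensin-like protein 39, had CHH methylation of 10.2% and 20.6% across an exon and an intron. Promoter CHH gains from low levels lay at AT2G42885 (0.147% and 3.08%) and AT3G24510 (0.359% and 3.33%). Runs of several lower CHH regions lay at AT2G06166 (4 regions, 4.55% to 13.4% in Col-0), AT1G65352 (4 regions, 7.37% to 13.1%) and AT5G55565 (4 regions, 11.6% to 17.2%). The genes named here were picked with their values in view.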
